A study of Mus musculus with 2 samples.

Results

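Transcripts of 10 genes of tendon and of mechanical load were followed in fetal mouse palate at E18.5 (embryonic day): Scx, Mkx, Egr1, Egr2, Tnmd, Thbs2, Thbs4, Tnc, Ctgf (now Ccn2) and Cyr61 (now Ccn1). The members were every probe set, that is every group of short probes for a transcript, that the platform annotation gives to exactly 1 of these genes, which came to 18 of the 45101 probe sets on the array. Total RNA of whole palate was hybridised for 2 genotypes on the BALB/c background, with 1 array from palate labelled Myf5-/-:MyoD-/- and 1 array from wild-type palate. Myf5 and MyoD (gene symbol Myod1) encode the transcription factors that commit cells to skeletal muscle, and the series addresses what that muscle contributes to the palate. The labels do not say how many fetuses made a sample or which part of each gene was removed. Each genotype has a single array, so no test could be made: what follows compares these arrays, without p-values.

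Tendons join muscle to bone, and their cells are laid down by the transcription factors scleraxis (Scx) and Mohawk (Mkx), which act on tendon collagen genes and on tenomodulin (Tnmd), a membrane glycoprotein of mature tendon cells. Tendon progenitors of the limb depend on muscle for their later growth. In tendon and other connective tissue, pulling and stretching switch on immediate early transcription factors of the EGR family and secreted matrix proteins such as thrombospondins, tenascin-C and the CCN proteins Ctgf and Cyr61, of which the last pair are also textbook targets of the mechanosensitive cofactors YAP and TAZ.

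None of the measured members differed by 2-fold between the arrays in the main processing. Each of the 4 other scalings tried put Egr1 at more than 2-fold lower. A gene counted as measured if its signal on the brighter array was at or above 658 after scaling, the 60th percentile of all probe sets, and 9 of the 10 members did so; Scx did not. Of these 9 genes, 5 had a lower signal on the double-null-labelled array and 4 a higher one, and 43.7% of all measured genes had a lower one. Egr1 lay at the low end with a log2 ratio of -0.99, and Egr2 at the high end with 0.50. The members' median log2 ratio was -0.30, beside 0.07 over all 11238 measured genes. No member was at least 2-fold lower, against 4.22% of all measured genes, and none was at least 2-fold higher, against 3.51%. At least 1.5-fold, 2 members were lower (Egr1 and Tnmd), against 11.7% of all measured genes, and none was higher, against 13.2%. With 9 genes these shares do not separate the members from the background. Ratios are double-null-labelled over wild-type throughout, and the only error available is the pooled SD of 0.51 between log2 ratios of different probe sets of a gene, which covers probe and isoform effects and not animals. By that measure 7 of the 9 members lay within 1 SD of 0 and 2 beyond it, while 29.6% of all measured genes lay beyond it. This count depends on the SD used. Among probe sets of intermediate signal the SD was 0.44, and Egr2 (0.50) and Cyr61 (-0.49), both of intermediate signal, lay beyond that value.

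The arrays themselves need a short account first. The targeted genes did not tell them apart: the brighter Myod1 probe set gave 1663 on the double-null-labelled array and 1938 on the wild-type array, and the Myf5 probe set gave 531 and 517. Neither labels nor annotation say whether these probe sets lie within deleted sequence, so the genotype is named as the label gives it. Skeletal muscle markers were lower on the double-null-labelled array but present on both: 18 of 21 were measured, all 18 had log2 ratios below 0, 8 were at least 2-fold lower, and their summed signal was 128715 on the double-null-labelled array and 239234 on the wild-type array. Of the 21, 1 was under the floor on both arrays (Mybpc2). Markers of the labelled tissue were present, with 7 of 9 genes of palate mesenchyme and 10 of 12 of oral epithelium measured. Some of these and of other tissues were lower as well. Oral epithelium markers had ratios below 0 in 8 of 10 (median -0.52) and a summed signal of 119695 on the double-null-labelled array and 156420 on the wild-type array. Krt4, an oral keratin, gave 4181 on the double-null-labelled array and 19880 on the wild-type array. Epcam was the highest of these markers at 0.85, but had -1.42 in its other probe set. Palate mesenchyme markers had a median of -0.07 over 7 genes, 4 below 0 and 3 above. By brightest probe set only Msx1, a homeobox gene, was past 2-fold. It gave 2561 on the double-null-labelled array and 9515 on the wild-type array. The other markers ran from -0.24 (Prrx1) to 0.19 (Pax9), although Shox2 with 0.14 had -1.63 in its other probe set. Endothelium markers had a median of -0.40 over 10 genes, 7 below 0 and 3 above, with Emcn the highest at 0.51. Cartilage markers had a median of -0.41 over 9 genes, 7 below 0 and 2 above, with Col2a1 the highest at 0.67. The part of these tissues, and of muscle, in the members' values was not tested. The arrays also differed in sex-linked transcripts, chosen here after their values were seen, with the Y-linked Eif2s3y at 2794 on the double-null-labelled array and 10.8 on the wild-type array.

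Upstream sequence shows which members carry letters that load-responsive factors are known to read. Windows of Scx, Mkx, Egr1 and Ctgf were not searched, so nothing is said of motifs in them. From RefSeq (build GRCm38.p6), the 250 bases before a start site were read for 6 members, with 11 start sites in all. They were searched on both strands for the sites GCGTGGGCG and GCGGGGGCG read by EGR proteins, for the CArG box read by serum response factor, for CATTCC, the core read by the TEAD partners of YAP, and for CATCTG, an E-box of the kind scleraxis binds. The 4 members with at least 1 match are shown 5′ to 3′ with the matches in capitals, ending at the base before the start site; the Egr2 and Tnc windows are 1 of 5 and 1 of 2 listed starts.
Cyr61, chr3:145649986-145650235, minus strand: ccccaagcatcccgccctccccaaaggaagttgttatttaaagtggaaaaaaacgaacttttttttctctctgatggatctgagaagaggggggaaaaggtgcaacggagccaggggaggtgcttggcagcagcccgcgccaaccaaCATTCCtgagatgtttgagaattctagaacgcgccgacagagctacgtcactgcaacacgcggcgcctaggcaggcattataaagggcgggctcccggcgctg
Thbs4, chr13:92794819-92795068, minus strand: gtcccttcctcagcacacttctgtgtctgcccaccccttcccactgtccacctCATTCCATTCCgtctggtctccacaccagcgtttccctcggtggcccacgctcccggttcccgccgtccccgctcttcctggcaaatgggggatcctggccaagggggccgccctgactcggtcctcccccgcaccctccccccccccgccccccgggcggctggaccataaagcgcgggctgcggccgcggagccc
Egr2, chr10:67537619-67537868, plus strand: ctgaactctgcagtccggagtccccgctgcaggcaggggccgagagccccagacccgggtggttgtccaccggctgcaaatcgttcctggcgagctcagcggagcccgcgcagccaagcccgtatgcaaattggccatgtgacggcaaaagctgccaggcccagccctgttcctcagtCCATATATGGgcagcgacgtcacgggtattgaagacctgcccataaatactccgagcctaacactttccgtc
Tnc, chr4:64047016-64047265, minus strand: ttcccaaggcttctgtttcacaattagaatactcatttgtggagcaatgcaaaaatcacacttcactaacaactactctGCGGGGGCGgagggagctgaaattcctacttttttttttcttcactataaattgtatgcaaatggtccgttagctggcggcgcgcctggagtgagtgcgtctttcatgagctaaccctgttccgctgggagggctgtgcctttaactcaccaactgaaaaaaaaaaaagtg
The Cyr61 window held CATTCC, and that of Thbs4 held it as a pair that overlaps by 1 base. The Egr2 window held a CArG box, 63 to 72 bases before the start. Of the other Egr2 windows, 2 overlap it and share that CArG box, 1 held a different CArG box together with CATTCC on the opposite strand, and 1 held no match. The Tnc window held the EGR site GCGGGGGCG, 163 to 171 bases before the start. Of all 32851 windows of that length, 12.6% held CATTCC, 1.47% a CArG box, 3.06% an EGR site and 14.4% CATCTG. None of the 11 windows held CATCTG, and those of Thbs2 and Tnmd held none of the motifs. These are matches of letters and are no evidence of binding.

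The tendon transcription factors were dim or modestly lower on the double-null-labelled array. Scx, the basic helix-loop-helix factor that marks tendon progenitors, had 227 on the double-null-labelled array and 353 on the wild-type array in its brighter probe set (1456291_x_at), and 162 and 143 in the other (1428983_at). Only the wild-type value of the brighter probe set exceeded the floor of 287, the 40th percentile, under which signals were not ordered, so no fold is given for Scx and the data do not show whether it differed. In the RefSeq table Scx lies inside the span of Bop1, a ribosome assembly gene, whose measured probe set gave 1214 and 1327. Mkx, the homeobox factor of tendon maturation, was measured by 1 probe set (1437492_at), with 988 on the double-null-labelled array and 1359 on the wild-type array. This log2 ratio of -0.46 is inside 1 SD between probe sets, and 34.1% of all measured genes had a ratio of at least that size.

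Tnmd, the member most restricted to tendon and ligament, was lower on the double-null-labelled array. Its probe set (1417979_at) gave 1435 on the double-null-labelled array and 2165 on the wild-type array, a log2 ratio of -0.59 or 1.51-fold lower. A ratio of that size or larger was found in 24.4% of measured genes, and Tnmd has no other probe set on this array to set beside it. Tnmd lies on the X chromosome, and Xist, the X-linked RNA made from an inactive X, had 16947 on the double-null-labelled array and 33812 on the wild-type array; the part of fetal sex in the Tnmd value was not tested. Since whole palate was measured, fewer tendon cells and less RNA per tendon cell cannot be told apart.

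**Figure D1:**
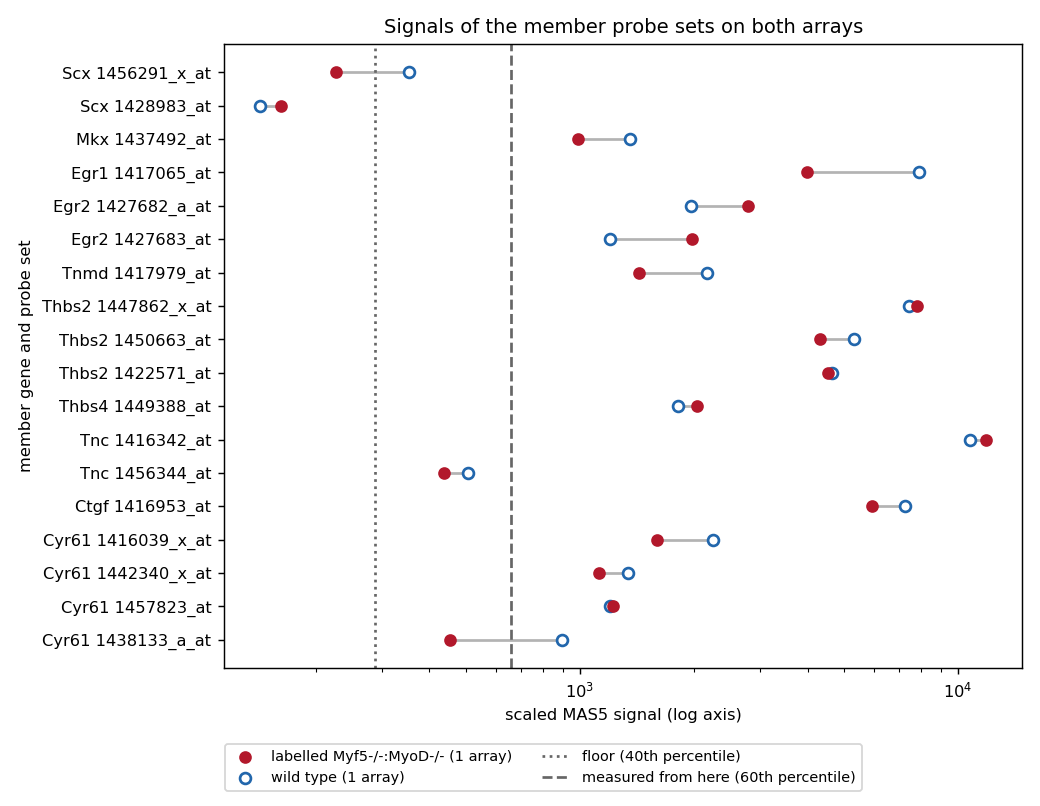
Scaled MAS5 signals (log axis) of the 18 member probe sets, filled points for the double-null-labelled array and open points for the wild-type array, 1 array each. Both Scx probe sets and the second Tnc probe set lie left of the dashed line at 658, and the widest gaps among measured probe sets are those of Egr1 (3991 and 7901) and of the dimmest Cyr61 probe set (453 and 895).

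The EGR factors went opposite ways. Egr1, a zinc finger factor induced within minutes by stretch and growth factors and needed for tendon collagen expression, gave 3991 on the double-null-labelled array and 7901 on the wild-type array (1417065_at). This was the largest difference among the members, 1.98-fold lower or a log2 ratio of -0.99, and 8.12% of measured genes had a ratio at least as large in either direction. Its side of the 2-fold mark depended on scaling, and all 4 other scalings tried put it past 2-fold. With the deposited scaling the log2 ratio was -1.06, and over all alternatives it ran from -1.19 to -0.98. Egr2, a relative best known from Schwann cells and hindbrain, was higher in both of its probe sets, with 2790 on the double-null-labelled array and 1966 on the wild-type array in the brighter (1427682_a_at, log2 ratio 0.50) and 1978 and 1205 in the other (1427683_at, 0.72).

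The gap between Egr1 and Egr2 is free of any scaling by 1 factor per array, because such a factor cancels. Quantile normalization is not of that kind and gave -1.07 for Egr1 and 0.49 for Egr2. In the main processing the Egr1 log2 ratio minus that of the brighter Egr2 probe set was -1.49. This is 2.05 times the SD of 0.73 that a difference of 2 ratios would have from probe effects alone. It was the widest of the 36 gaps between members and the only 1 beyond 2 such SDs. Being the most extreme of 36 pairs, it was picked out by its size and is given as a description. Egr3, another zinc finger factor of the family, gave 2123 on the double-null-labelled array and 1398 on the wild-type array (log2 ratio 0.60), with 0.31 in a dimmer probe set. Egr4 was under the floor on both arrays. The corepressors Nab1 and Nab2, which bind EGR proteins, had log2 ratios of 0.01 and -0.26. Neuron markers were higher on the double-null-labelled array, where 10 of 10 had a ratio above 0, none was under the floor on either array and their summed signal was 124563, against 57245 on the wild-type array; Egr2 and Egr3 are also expressed in nerve and ganglia, and the part of nervous tissue in their values was not tested.

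Other immediate early genes showed no common direction. Of 28 in a fixed list that leaves out Egr1 and Egr2, 22 were measured, 10 with ratios below 0 and 12 above by the brightest probe set of each gene, none past 2-fold, with a median of 0.02. Ier2, a nuclear early response factor, gave 1359 on the double-null-labelled array and 2099 on the wild-type array (log2 ratio -0.63). Ier3, an early response regulator of apoptosis, had -0.60, and Egr3 with 0.60 was the highest. Jun, a partner of Fos in the AP-1 factor, had 0.52 in its brightest probe set but -1.25 in its other measured probe set (chosen after its values were seen), which is lower than Egr1.

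**Figure D2:**
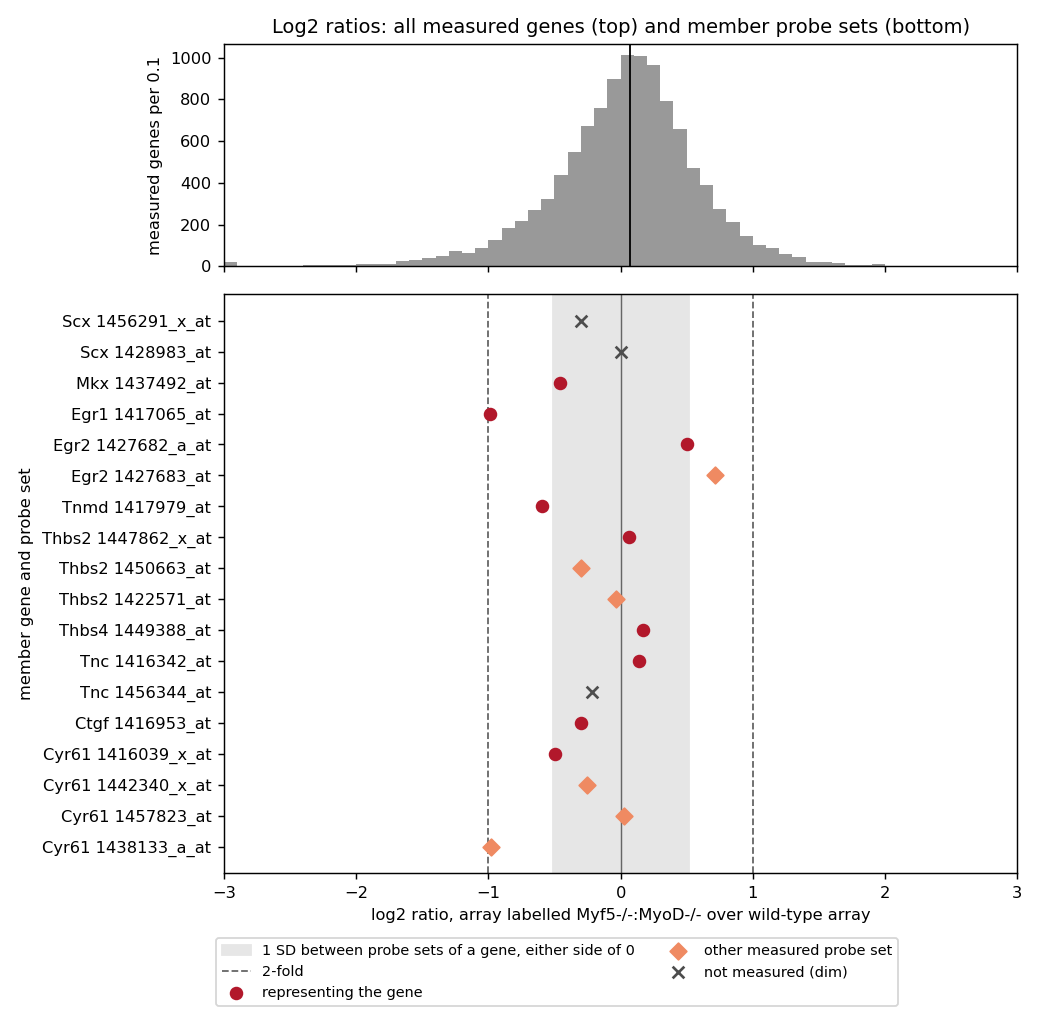
Log2 ratios (double-null-labelled over wild-type array) of all 11238 measured genes as a histogram with the median of 0.07 marked, where the end bars collect larger ratios, and of the 18 member probe sets below it. Egr1 and the dimmest Cyr61 probe set lie next to the 2-fold line at -1, both Egr2 probe sets lie right of 0, and the grey band is 1 SD (0.51) between probe sets of a gene.

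The thrombospondins and tenascin-C were nearly level. Thbs2, a thrombospondin that tunes collagen fibril assembly, had 3 measured probe sets: 7784 on the double-null-labelled array and 7437 on the wild-type array (1447862_x_at), 4311 and 5300 (1450663_at), and 4525 and 4629 (1422571_at). Their log2 ratios of 0.07, -0.30 and -0.03 straddled 0, and the SD between them was 0.19. Thbs4, the thrombospondin most tied to tendon and muscle attachments, gave 2041 on the double-null-labelled array and 1814 on the wild-type array (1449388_at, log2 ratio 0.17). Tnc, tenascin-C, an adhesion-modulating protein of tendon and of loaded or developing mesenchyme, gave 11866 and 10774 in its bright probe set (1416342_at, log2 ratio 0.14) and 437 and 507 in a probe set too dim to count as measured (1456344_at). For all 3 genes the differences were under 1 SD between probe sets. The sign of these small ratios changed under other choices of scaling (Tnc, Thbs4) or of scaling and probe set (Thbs2).

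Relatives of these proteins outside the member list gave larger differences. Thbs3, a thrombospondin of developing skeleton, had 659 on the double-null-labelled array and 2045 on the wild-type array, 3.10-fold lower (log2 ratio -1.63). Tnn, tenascin-N (also called tenascin-W), found at sites of bone formation and in periosteum, had 1152 and 2739, 2.38-fold lower (-1.25). Each rests on 1 probe set. Thbs1 and Comp were too dim to count as measured, and Tnr and Tnxb were under the floor on both arrays. Bone markers, given here because both genes are known from bone, had a median log2 ratio of -0.37 over 8 measured genes of 12, 3 of them at least 2-fold lower and none higher. Mepe, an osteocyte matrix gene, was at least 5.63-fold lower, since its 90.8 on the double-null-labelled array lay under the floor, with 1615 on the wild-type array. Ifitm5 was the highest, with 1624 on the double-null-labelled array and 1289 on the wild-type array (log2 ratio 0.33). The bone markers had a summed signal of 114594 on the double-null-labelled array and 125432 on the wild-type array. Of these sums Ibsp alone gave 89889 and 86107 (log2 ratio 0.06). The part of bone in the Thbs3 and Tnn values was not tested.

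Ctgf and the brightest Cyr61 probe set were lower on the double-null-labelled array, by less than the pooled SD of 0.51 between probe sets. Ctgf, connective tissue growth factor, a secreted matricellular protein induced by TGF-beta and by stretch, gave 5908 on the double-null-labelled array and 7254 on the wild-type array (1416953_at, log2 ratio -0.30). Cyr61 had 4 measured probe sets that disagreed more than those of the other 4 members with several, with an SD between their log2 ratios of 0.43. The brightest (1416039_x_at) gave 1596 on the double-null-labelled array and 2248 on the wild-type array, a log2 ratio of -0.49. The next (1442340_x_at) gave 1122 and 1337 (-0.25), and the dimmest (1438133_a_at) gave 453 and 895 (-0.98). The other (1457823_at) gave 1227 on the double-null-labelled array and 1205 on the wild-type array (0.03). On this design the suffix x marks probes that may cross-hybridise and the suffix a marks transcripts of the same gene, so the probe sets without the x suffix hold both the lowest and the highest Cyr61 ratio. In the rest of the family, Ccn3 (listed as Nov) had -0.81, with -0.38 in its other probe set, Ccn4 had -0.07 and Ccn5 0.25, and Ccn6 was under the floor on both arrays.

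YAP and TAZ and their other targets did not move as a group. Of 19 measured target genes in a fixed list without Ctgf and Cyr61, 10 had ratios below 0 and 9 above, with a median of -0.05 and none past 2-fold by the brightest probe set. Crim1, a membrane protein, had 0.13 there and 1.34 in its other probe set (chosen after its values were seen). Fjx1 was the lowest with 1173 on the double-null-labelled array and 2109 on the wild-type array (-0.85), and Dock5, a Rac activator, the highest with 0.62. Asap1, an adhesion regulator, had -0.59, with 0.05 in its other probe set. In the pathway itself 13 of 15 genes were measured with a median of 0.09. Wwtr1, which encodes TAZ, had -0.64, but its other probe sets had a median of 0.34; the kinase gene Lats2 had 0.62 and Tead2, a DNA-binding partner of YAP, 0.43. MRTF and SRF form the actin-sensing route to load-responsive transcription. A list of their target genes, which also holds Mrtfa and Mrtfb themselves, had 14 measured genes. Of these 10 had ratios below 0, none past 2-fold, and the median was -0.43. Tagln, an actin-binding protein, gave 1127 and 2157 (-0.94) and Actg2, gamma smooth muscle actin, 418 and 761 (-0.86). Mrtfa itself had -0.73 and Mrtfb 0.14, while Actn1, alpha-actinin, was the highest at 0.40. Several of this list, such as Tpm1 and Tpm2, are also muscle genes, and the part of muscle in its median was not tested.

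**Figure D3:**
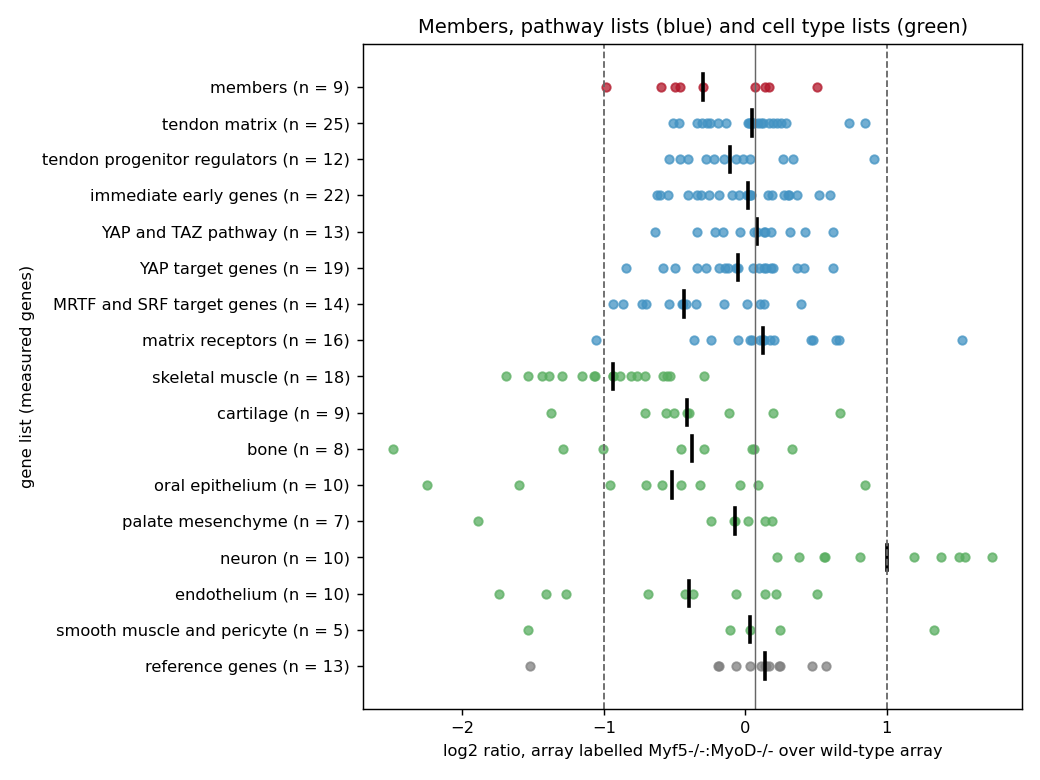
Log2 ratios (double-null-labelled over wild-type array) of the measured genes of each list, 1 point per gene, with the median as a black bar, dashed lines at 2-fold and a thin line at the all-gene median of 0.07. The 9 members (top row, median -0.30) stay within the dashed lines, whereas the skeletal muscle markers all lie below 0 (median -0.93) and the neuron markers all above it.

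Matrix genes of tendon stood near the level of all genes by their brightest probe sets. Of 30 listed, 25 were measured, none past 2-fold by that probe set. Ratios were below 0 for 8 and above for 17, with a median of 0.05, and 43.7% of all measured genes lay below 0. Averaged over the measured probe sets of each gene, the list median was -0.14, beside 0.05 over all genes. The sign of the list median thus depended on the probe sets used. The highest were Col12a1, a fibril-associated collagen of tendon, with 7086 on the double-null-labelled array and 3939 on the wild-type array (0.85, but -0.38 in its other probe set), and Col1a1, the main fibrillar collagen chain of tendon and bone, with 61076 and 36646 (0.74, and 1.20 in its other probe set). Fbln1, a basement membrane and elastic fibre protein, was the lowest at -0.51. Most of these genes are also made by bone, dermis and other mesenchyme, so the list does not isolate tendon.

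Regulators of tendon progenitors gave 12 measured genes of 22, 8 below 0 and 4 above, with a median of -0.11 and none past 2-fold. Eya1, a transcriptional cofactor of head mesenchyme and muscle, gave 10239 on the double-null-labelled array and 5442 on the wild-type array (0.91, and 1.17 in its other probe set). Six2, a homeobox factor of tendon and palate mesenchyme, had -0.54, and Nfatc4, a calcium-regulated factor, -0.46. In the tenomodulin family Cnmd, chondromodulin, was too dim to count as measured, and of the related membrane proteins Itm2b had 0.48 (0.27 in its other probe set), Itm2a -0.35 and Itm2c 0.01.

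Receptors and adhesion proteins through which members signal held the only differences past 2-fold by brightest probe set among these lists of tendon and load pathways. Of 16 measured genes 12 had ratios above 0, 1 was at least 2-fold higher and 1 at least 2-fold lower, with a median of 0.13. Sdc4, a heparan sulphate proteoglycan of focal adhesions that CCN proteins bind, gave 15649 on the double-null-labelled array and 5410 on the wild-type array (2.89-fold higher), but its other probe set gave 2747 and 4038, a log2 ratio of -0.56. Lrp1, an uptake receptor for thrombospondins and Ctgf, gave 2011 and 4177 (2.08-fold lower), with -0.33 in its other probe set. Itgb1, the integrin beta 1 chain, had 0.66, and its other probe sets had a median of 0.64.

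**Figure D4:**
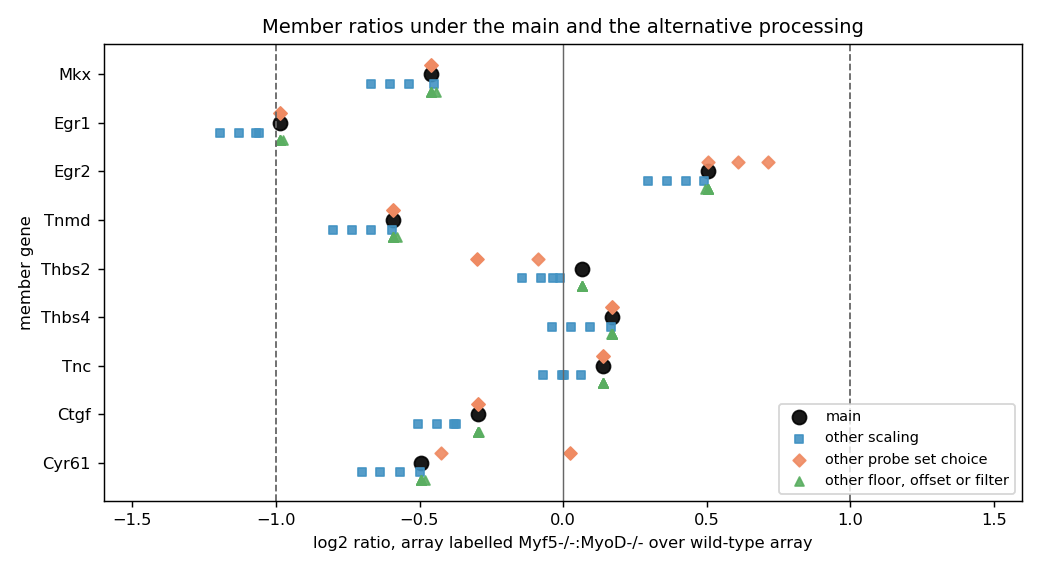
Log2 ratios (double-null-labelled over wild-type array) of the 9 measured members under the main processing (black) and 13 alternatives, by kind of alternative, with dashed lines at 2-fold. Egr1 crosses the 2-fold line under all 4 other scalings and under no other kind of alternative. Cyr61 moves to 0.03 when its brightest probe set without an x suffix stands for it, and Thbs2, Thbs4 and Tnc lie on either side of 0.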

How the data were processed

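Biotinylated cRNA from 6 µg of total RNA per sample was hybridised to Affymetrix arrays, per the labels' protocols. The deposited values are linear signal intensities per probe set. The authors used MAS5, per the submitters' processing notes; its version and any genome build are not given in the sources used here. Detection calls were not used here. Deposited intensities ran from 0.976 to 193166 on the double-null-labelled array and from 1.26 to 171378 on the wild-type array.

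Arrays were scaled to a common median over the probe sets that exceed the 50th percentile in both (factors 1.03 for the double-null-labelled array, 0.974 for wild type). The 64 controls were left out. Signals under the floor were set to it before log2. Each gene was read from its brightest probe set by mean log2 signal. Platform annotation gave 1 gene to 34945 probe sets, several to 932 and none listed to 9160; 34741 were matched to RefSeq GRCm38.p6, which also resolved older symbols. The probe-set SD came from 10190 probe sets of 4030 genes and was 0.60 among dim, 0.44 among intermediate and 0.42 among bright probe sets, cut at signals of 1218 and 3076. The number of arrays limits the precision.

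Genes named were all members and genes drawn from a rule that takes, per list, the 3 with the largest absolute ratio plus the 1 furthest the other way; cell type lists are given mainly by their counts. Others were chosen after their values were seen. Members and lists were chosen with earlier results of these data known. With 2 arrays no likeness between gene patterns was measured. The steps were run on simulated data with known changes in brighter genes, as a check of the code. That run compared group medians only and says nothing of single genes, dim probe sets or animals. Python 3.11.15, numpy 2.4.6, pandas 2.3.3 and matplotlib 3.10.9 were used.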

Additional observations from a re-analysis of the deposited data

How the results depend on the processing

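Floor and filter settings could not move the ratio of a counted member, since its signals lay above every floor used. The scalings tried shifted member ratios by less than the probe-set SD. The count that follows was thus largely set in advance and is no measure of precision. Across 13 alternatives of scaling, floor, offset, probe set choice and filter, 114 of 116 member log2 ratios stayed within the probe-set SD of 0.51 of their main value. The exception was Cyr61, at 0.026 against -0.49, both without probe sets of suffix s, x or a and, in an alternative chosen after seeing the data, without those of suffix s or x alone; another probe set then stands for it, while its a-suffix probe set gave -0.98. The count of members at least 2-fold lower, 0 as reported, was 1 (Egr1) with the deposited scaling, quantile normalization and both scalings on reference genes, and 2 (Egr1 and Tnmd) when 1.5-fold counted; no member was 2-fold higher in any alternative. Scaling on reference genes by their median signal moved the median of all genes to -0.15, from which the members' median of -0.50 differed by -0.35, beside -0.37 in the main processing. Scaling on their median ratio moved it to -0.08. Of genes past 2-fold, 54.6% were lower, but 65.0% with the deposited scaling and 81.6% and 74.2% with these reference scalings; with the floor at the 60th percentile 264 genes were lower and 257 higher, against 474 and 394. With the filter at the 75th percentile Mkx was not counted, and the members' median was -0.12, a gap of -0.21 to all genes. Signs changed for Thbs2 in 7 of 13 alternatives, Tnc and Cyr61 in 2 each and Thbs4 in 1. None of 208 list medians moved by the probe-set SD, which is a wide yardstick for a median over several genes. Some of their signs did change. With scaling on the median signal of reference genes, tendon matrix went from 0.05 to -0.17 and immediate early genes from 0.02 to -0.19. The YAP and TAZ pathway went from 0.09 to -0.12 and matrix receptors from 0.13 to -0.08. No paired analysis was possible because each genotype had 1 array, and none could be left out. Dim probe sets such as those of Scx are limited by background.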
